A study of Phyllostachys edulis with 2 samples.

Results

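Epidermis cells of the moso bamboo (Phyllostachys edulis) basal root tip were taken as the cells that carried PH02Gene08613 and PH02Gene29592 at high levels and little PH02Gene00514. A cell was a member when PH02Gene08613 reached 350 CPM (the UMI count of a gene over the total UMI count of the cell, on the usual CPM scale, so that 350 CPM is 1.4 UMIs in a cell of 4000), PH02Gene29592 reached 3500 CPM and PH02Gene00514 stayed under 400 CPM. These cells numbered 925 of the 7093 cells with at least 4000 UMIs and more than 500 genes, and of 15324 barcodes in all. A UMI (unique molecular identifier) marks an original transcript, so that amplified copies are counted once. The samples were protoplasts, cells freed of their walls by enzymes, from basal root tips of plants whose stage the study gives by shoot height. The labels named no treatment. There were 2 biological replicates, and each gave 1 droplet library. The design had no second condition, so every comparison below is between cells of the same libraries.

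The root epidermis is the outermost cell layer behind the root cap. It faces the soil, takes up water and ions, forms root hairs, and carries a thin protective surface layer. In Arabidopsis, homeodomain factors such as GL2 set which of its cells form hairs. PH02Gene08613 is described in the gene table of the study as a predicted protein of barley, and the study also links it to functional categories of cuticle formation and of response to fungi. PH02Gene29592 is a homolog of the translationally controlled tumor protein, a conserved protein linked to cell growth. PH02Gene00514 encodes an aquaporin of the PIP1-1 type, a water channel of the plasma membrane. The study named PH02Gene08613 and PH02Gene14566 as epidermis genes by in situ hybridization, in which a labelled antisense probe shows where a transcript lies in a tissue section. Only PH02Gene14566 was left out of the rule, so that its level could be tested. It was chosen by the study on these same libraries and is therefore not independent evidence of cell identity.

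The coding-strand sequences of the hybridization probes listed by the study are shown for both epidermis genes and for PH02Gene10382, its marker of transition cells. By in situ hybridization the study assigned PH02Gene10382 to the epidermis and to the columella of the root cap. It is shown because the sequences of PH02Gene14566 and PH02Gene10382 are the same over 91 bases. Capitals mark this shared stretch, counted from the first base, and all sequences run 5′ to 3′.
PH02Gene14566: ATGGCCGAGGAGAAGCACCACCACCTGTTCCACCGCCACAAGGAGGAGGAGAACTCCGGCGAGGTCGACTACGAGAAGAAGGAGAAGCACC
PH02Gene10382: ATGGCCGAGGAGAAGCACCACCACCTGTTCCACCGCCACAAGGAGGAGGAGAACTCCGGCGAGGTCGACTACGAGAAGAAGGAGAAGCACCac
PH02Gene08613: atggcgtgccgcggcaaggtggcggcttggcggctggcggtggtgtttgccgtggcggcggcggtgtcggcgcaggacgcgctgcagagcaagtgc
The listed sequence of PH02Gene14566 had 91 bases and ended within the longer one of PH02Gene10382, which had 93. The sequence of PH02Gene08613 had 96 bases, of which 74.0% were G or C. As listed, a probe for PH02Gene14566 over this stretch could not tell its transcript from that of PH02Gene10382. Whether both transcripts carry the stretch was not checked, since no genome was used. How sequencing reads of this pair were divided during counting is not given in the sources used here, so the split of UMIs between them is uncertain.

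Replicate 1 held 36419750 UMIs in 7668 barcodes and replicate 2 held 42126823 UMIs in 7656 barcodes, of which 15 barcodes occurred in both libraries. No barcode was shared among the epidermis cells. In replicate 1, 428 of 3423 cells met the rule, which was 12.5% with an exact binomial 95% interval of 11.4% to 13.7%. In replicate 2, 497 of 3670 cells met it, which was 13.5% with an interval of 12.5% to 14.7%. The intervals overlapped, and they cover counting error only. Epidermis cells had a median of 9713 UMIs and 3737 genes in replicate 1 and of 10046 UMIs and 3778 genes in replicate 2. All other cells of at least 4000 UMIs had medians of 7754 and 8605 UMIs. Epidermis cells were thus the more deeply counted ones in both libraries. Doublets were neither called nor removed, and the part of depth or doublets in the results was not tested, except that the results were recomputed with every cell thinned to 4000 UMIs.

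The values that chose the cells are given as a description only. The median epidermis cell had 681 CPM of PH02Gene08613 in replicate 1 and 684 CPM in replicate 2. For PH02Gene29592 the medians were 5404 and 5696 CPM. PH02Gene00514 had a median of 0 CPM in replicate 1 and 55.1 CPM in replicate 2. Many cells lay close to the limits. Within 10% of the limit on PH02Gene08613, 28 and 34 cells of replicates 1 and 2 were just inside, with 353 to 383 and 351 to 384 CPM, and 24 and 39 cells that met the other conditions were just outside, with 318 to 349 and 315 to 349.7 CPM. Within 10% of the limit on PH02Gene29592, 57 and 37 cells were just inside and 40 and 36 just outside. In a cell of 4000 UMIs the limit on PH02Gene08613 corresponds to 1.4 UMIs, so that 1 UMI more or less could move a shallow cell across it. The set is therefore a range along continuous levels rather than a separated group.

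PH02Gene14566, for which the annotation of the study gives no description, was the epidermis gene of the study that the rule had not used. Summed over the cells of each library, it stood at 1215 CPM in the epidermis cells of replicate 1 and 1382 CPM in those of replicate 2. All other cells had 407 and 428 CPM. Both epidermis values lay far above both others, and the difference was 3.31-fold (log2 fold change 1.73 ± 0.09 SE, adjusted p = 2.4e-07, edgeR quasi-likelihood test with Benjamini-Hochberg adjustment over 24540 genes). Here and below, ± gives the SE derived from the test statistic of the fit, and n is 2 libraries. The p-values measure the spread between these 2 libraries and not that over many plants.

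PH02Gene14566 was also higher than in each set of cells chosen by another marker. Among cells that were not members, initial-type cells were those with PH02Gene04325 at 400 CPM or more, transition-type cells those with PH02Gene10382 at 400 CPM or more, and PH02Gene00514-rich cells those with the aquaporin at 400 CPM or more, taken in this order. Initial-type cells had 238 and 304 CPM of PH02Gene14566, the lowest of these sets. Transition-type cells had 400 and 440 CPM, PH02Gene00514-rich cells 390 and 445 CPM, and all remaining cells 442 and 441 CPM. The values of these last 3 sets overlapped and gave no order. Epidermis cells exceeded initial-type cells by 2.09 ± 0.11 on the log2 scale (edgeR adjusted p = 6.6e-13), transition-type cells by 1.58 ± 0.11 (adjusted p = 8.9e-11) and PH02Gene00514-rich cells by 1.73 ± 0.11 (adjusted p = 3.7e-12), in a fit of 8 sums over 20227 genes.

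**Figure D1:**
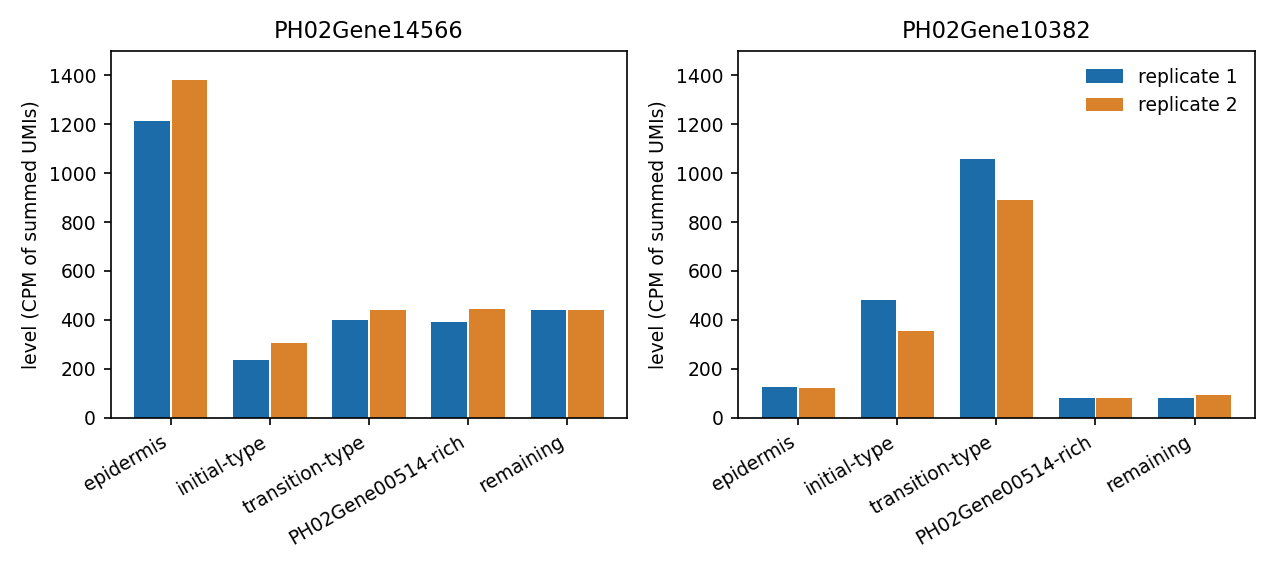
Level of PH02Gene14566 (left) and PH02Gene10382 (right) in CPM of summed UMIs, for 5 sets of cells, with 1 bar for each replicate. PH02Gene14566 is highest in the epidermis cells (1215 and 1382 CPM) and PH02Gene10382 in the transition-type cells (1058 and 889 CPM), whose choice used PH02Gene10382.

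The listed probe sequence of PH02Gene10382 shares its stretch with that of PH02Gene14566, and the study located PH02Gene10382 in the epidermis as well. In these cells PH02Gene10382 went the other way. It had 127 and 122 CPM in epidermis cells against 290 and 248 CPM in all other cells, a log2 fold change of -1.02 ± 0.09 (edgeR adjusted p = 4.7e-06). This difference lay at the limit of 2-fold and fell short of it under 4 alternatives and without replicate 1 (-0.92), with the same direction throughout. Transition-type cells, which were chosen by this gene, had 1058 and 889 CPM. The PH02Gene00514-rich cells had 79.9 and 80.6 CPM and the remaining cells 80.6 and 95.04 CPM, both below the epidermis cells. The lower level of PH02Gene10382 in epidermis cells was thus relative to a background made up largely by transition-type and initial-type cells.

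After each cell was thinned to 4000 UMIs, 72.7% of epidermis cells of replicate 1 and 78.1% of those of replicate 2 held a UMI of PH02Gene14566. Among all other cells the shares were 43.7% and 48.3%. At full depth the shares in epidermis cells were 81.3% and 88.1%. In the re-derived cluster with the lowest level of this gene, 15.1% and 20.8% of cells held a UMI at the same thinned depth, with medians of 7605 and 8359 UMIs before thinning. This cluster itself held some epidermis cells, so its shares were taken as an upper mark for background from free RNA. The shares in epidermis cells were well above it, and so were those in the other sets. Over epidermis cells of replicate 1, 52.8% held PH02Gene14566 without PH02Gene10382, 4.91% PH02Gene10382 alone, 19.9% both and 22.4% neither. The corresponding shares in replicate 2 were 54.1%, 6.04%, 23.9% and 15.9%. A large minority of cells chosen by the rule therefore held no UMI of PH02Gene14566 at this depth.

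The level of PH02Gene14566 followed how many of both positive conditions a cell met. Among cells with PH02Gene00514 under 400 CPM, those that met neither had 279 and 302 CPM. Cells that met only the condition on PH02Gene08613 had 472 and 537 CPM, and cells that met only that on PH02Gene29592 had 684 and 608 CPM. Cells that met both, the epidermis cells, had 1215 and 1382 CPM. PH02Gene07648 behaved alike, with 17.2 and 23.7 CPM in cells meeting neither, 71.5 and 54.4 CPM with PH02Gene08613 only, 64.3 and 75.4 CPM with PH02Gene29592 only, and 170 and 151 CPM with both. PH02Gene41953 instead separated cells mainly by PH02Gene08613, with 203 and 189 CPM where only that gene was high and 99.8 and 112 CPM where only PH02Gene29592 was. The initial cell marker PH02Gene04325 was low wherever PH02Gene29592 was high, at 26.3 and 42.5 CPM with PH02Gene29592 only and 39.3 and 52.6 CPM with both, against 186 and 174 CPM with neither.

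**Figure D2:**
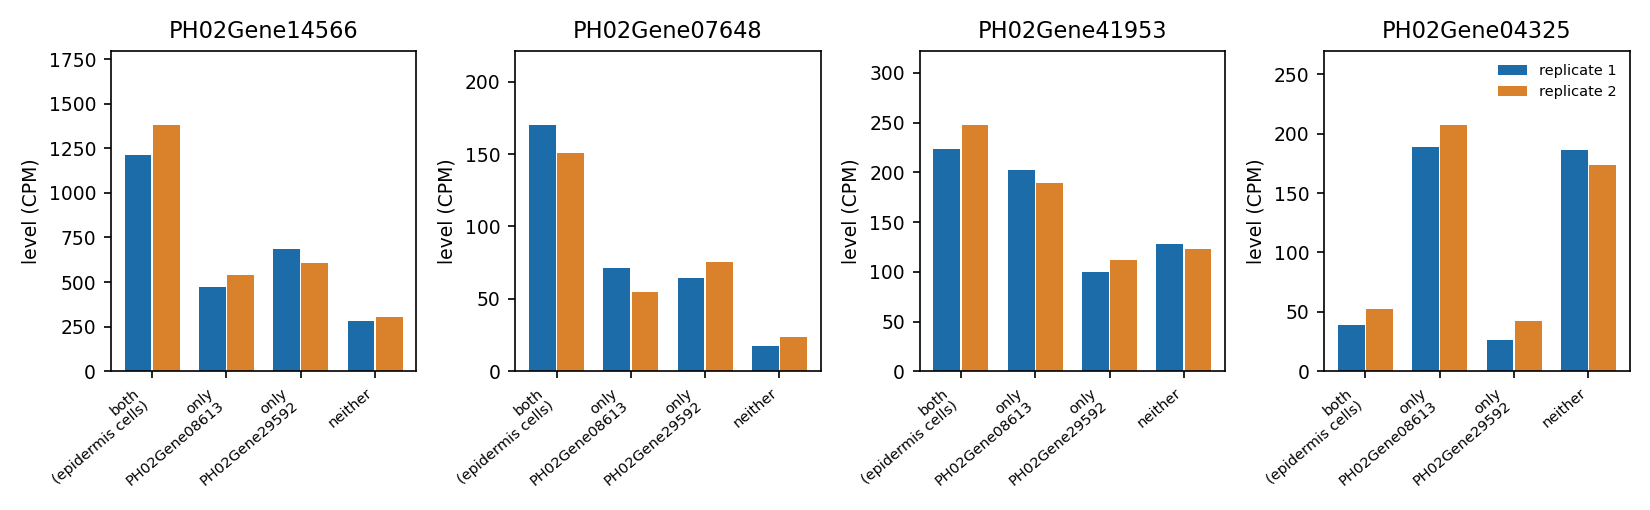
Level in CPM of 4 genes in cells grouped by which of the positive conditions they met (PH02Gene08613 at 350 CPM, PH02Gene29592 at 3500 CPM), with 1 bar for each replicate and cells of under 400 CPM of PH02Gene00514 only. PH02Gene14566 and PH02Gene07648 are highest where both are met, while PH02Gene04325 is low wherever PH02Gene29592 is high.

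Clustering that did not use the named genes of the study placed the largest part of the epidermis cells in 1 cluster and spread the rest over others. The 15304 cells with more than 500 genes were clustered on 1970 variable genes, after 57 named genes had been set aside. A single cluster of 14 held 56.1% of the epidermis cells of replicate 1 and 54.1% of those of replicate 2. Epidermis cells made up 44.4% and 45.6% of its cells of at least 4000 UMIs. The next cluster held 20.5% of the epidermis cells over both replicates, beside 29.2% to 30.4% with 4 other clustering seeds. The borders between the smaller clusters thus moved with the seed. Within the main cluster, the members had 1558 and 1782 CPM of PH02Gene14566 and the other cells 934 and 894 CPM. The other cells of this cluster thus carried the gene at a level above that of cells elsewhere, though they failed the rule. All 12 of the genes with the largest rises, described next, were higher in the members than in the other cells of the main cluster in both replicates. Of the 12 largest falls, 10 were lower there in both, while PH02Gene00840 and PH02Gene42316 were lower in 1 replicate and higher in the other. The annotated rises PH02Gene21748 and PH02Gene25370 were not higher in both replicates within this cluster either. All these genes were chosen by comparing the same members with other cells that include those of this cluster. These counts are therefore a description and not a separate test.

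**Figure D3:**
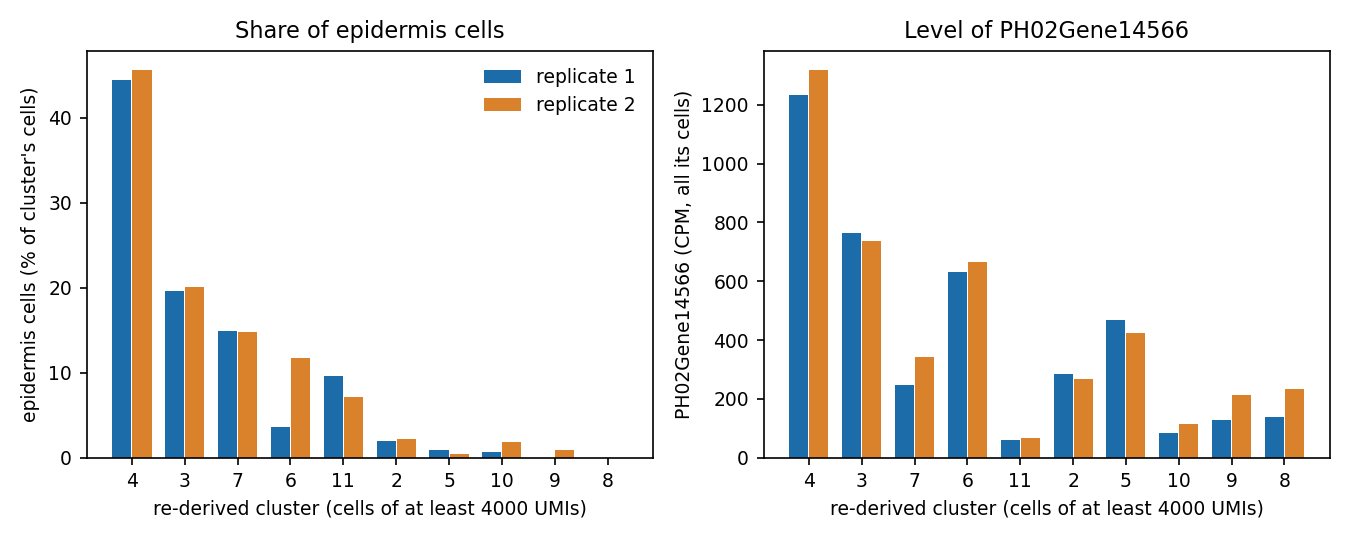
Share of epidermis cells among the cells of each re-derived cluster (left, in percent) and level of PH02Gene14566 over all its cells (right, in CPM), for clusters with at least 100 cells of 4000 UMIs or more, with 1 bar for each replicate. The leftmost cluster has the highest share (44.4% and 45.6%) and the highest level of PH02Gene14566.

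Against all other cells, 322 of 24540 genes tested were higher in epidermis cells (1.31%) and 1482 were lower (6.04%), at an adjusted p under 0.05 (edgeR) and at least 2-fold. At 100 CPM or more in the higher set in both replicates, 48 genes rose and 67 fell. Only 4 of the 48 had a description, an ortholog or a factor family in the tables of the study, against 43 of the 67. These tables describe genes of selected clusters, so the count says which genes were annotated and not what the others do. In all, 1407 genes had such an annotation, and the files hold 50936 genes. Most of the 48 genes that rose were thus known here only by identifier.

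Among these genes of 100 CPM or more, PH02Gene07648 rose most, from 35.6 and 42.4 CPM in all other cells to 170 and 151 CPM in epidermis cells, 4.36-fold (log2 fold change 2.12 ± 0.10, edgeR adjusted p = 2.3e-07). After thinning, 29.4% and 25.8% of epidermis cells held a UMI of it, against 7.8% and 9.6% of all other cells. It was lowest in initial-type cells, at 10.5 and 21.6 CPM, and stood at 33.2 and 26.4 CPM in transition-type cells. PH02Gene04539 rose from 49.4 and 53.3 to 143 and 153 CPM (1.62 ± 0.09 on the log2 scale), and PH02Gene43455 from 62.8 and 63.2 to 161 and 179 CPM (1.53 ± 0.09). PH02Gene18036 rose from 99.1 and 105 to 251.5 and 290 CPM (1.503 ± 0.09). For none of these genes did the values of epidermis cells overlap those of the other cells, which their choice as called rises largely ensured. PH02Gene42132 was the most abundant of the 12 after PH02Gene14566, with 749 and 803 CPM against 344 and 360.5 CPM, a log2 fold change of 1.23 ± 0.08. The other 6 of the 12, PH02Gene05279, PH02Gene15369, PH02Gene31046, PH02Gene32935, PH02Gene43616 and PH02Gene48757, rose by 1.18 to 1.29 on the log2 scale. Against initial-type cells, PH02Gene18036, PH02Gene43455, PH02Gene48757 and PH02Gene32935 were not called, while the rest of the 12 were called higher. PH02Gene32935 had 120 and 126 CPM in initial-type cells, beside 118 and 110 CPM in epidermis cells.

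The 4 annotated genes that rose at 100 CPM or more are described singly. PH02Gene41953 resembles SAUR71, of a family of small proteins induced by auxin. It rose from 117 and 115 CPM to 224 and 248 CPM (log2 fold change 1.12 ± 0.09, edgeR adjusted p = 2.1e-06). PH02Gene25370 resembles a leaf-specific thionin of rice, and thionins are small antimicrobial peptides. It had 218 and 176 CPM in epidermis cells against 97.3 and 103.5 CPM (1.06 ± 0.09), and fell short of 2-fold without replicate 1, at 0.86. Within the main cluster PH02Gene25370 had 106.6 and 59.9 CPM in members against 105.7 and 101.4 CPM in the other cells, close in replicate 1 and lower in members in replicate 2. PH02Gene33528 encodes a protein like xylanase inhibitor protein 1, a class that blocks wall-degrading enzymes of microbes. It had 129 and 111 CPM against 64.0 and 58.7 CPM (1.05 ± 0.09). PH02Gene21748, a factor of the AP2/ERF family, had 158.5 and 179.5 CPM against 79.9 and 94.8 CPM (1.04 ± 0.11). Initial-type cells had more of PH02Gene41953 (302 and 286 CPM) and PH02Gene33528 (146 and 143 CPM) than epidermis cells. They had less of PH02Gene25370 (53.9 and 53.5 CPM) and PH02Gene21748 (47.5 and 61.7 CPM). The xylanase inhibitor was called neither without the condition on PH02Gene00514, at 0.97, nor with thinned cells.

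Among transcription factors and kinases that the study listed for its clusters of initial, transition and epidermis cells, 4 of 98 tested rose and 2 fell, beside 1.31% higher and 6.04% lower over all genes. The median log2 fold change of this list was 0.04, beside -0.04 over all genes tested. The list was chosen by the study on these libraries. PH02Gene33993, of the bHLH family, rose from 25.9 and 26.8 CPM to 65.6 and 69.3 CPM (1.45 ± 0.09 on the log2 scale). PH02Gene35878, a WRKY factor, rose from 21.6 and 22.5 CPM to 49.3 and 48.8 CPM (1.24 ± 0.10). PH02Gene16905, a MYB factor, rose from 41.6 and 38.4 CPM to 68.8 and 85.0 CPM (1.04 ± 0.11), with 0.80 without replicate 2. The families named are large and say nothing of the targets of these members.

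Of the 12 largest falls at 100 CPM or more, PH02Gene48391 fell most, from 173 and 208.5 CPM in all other cells to 36.3 and 49.3 CPM in epidermis cells (log2 fold change -2.05 ± 0.14, edgeR adjusted p = 1.2e-06). PH02Gene19264 and PH02Gene23495, both of the AP2/ERF family, had 27.5 and 30.3 CPM against 104 and 123 CPM (-1.88 ± 0.12), and 42.5 and 50.8 CPM against 161 and 171 CPM (-1.73 ± 0.11). PH02Gene31405 resembles 12-oxophytodienoate reductase 1 and PH02Gene23968 a putative 12-oxophytodienoate reductase 5, of a family of flavin enzymes that includes a step of jasmonate synthesis. PH02Gene31405 had 42.0 and 52.8 CPM against 166 and 172 CPM (-1.73 ± 0.11), and PH02Gene23968 had 23.2 and 42.7 CPM against 115 and 121 CPM (-1.72 ± 0.17). PH02Gene20579 and PH02Gene42316, both with heavy metal binding domains by their descriptions, fell by 1.70 and 1.66 on the log2 scale. PH02Gene21239, like a vacuolar amino acid transporter, had 29.7 and 39.8 CPM against 103.5 and 115 CPM (-1.54 ± 0.13). PH02Gene42845, like WRKY62, had 39.7 and 70.4 CPM against 153 and 187 CPM (-1.51 ± 0.18).

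**Figure D4:**
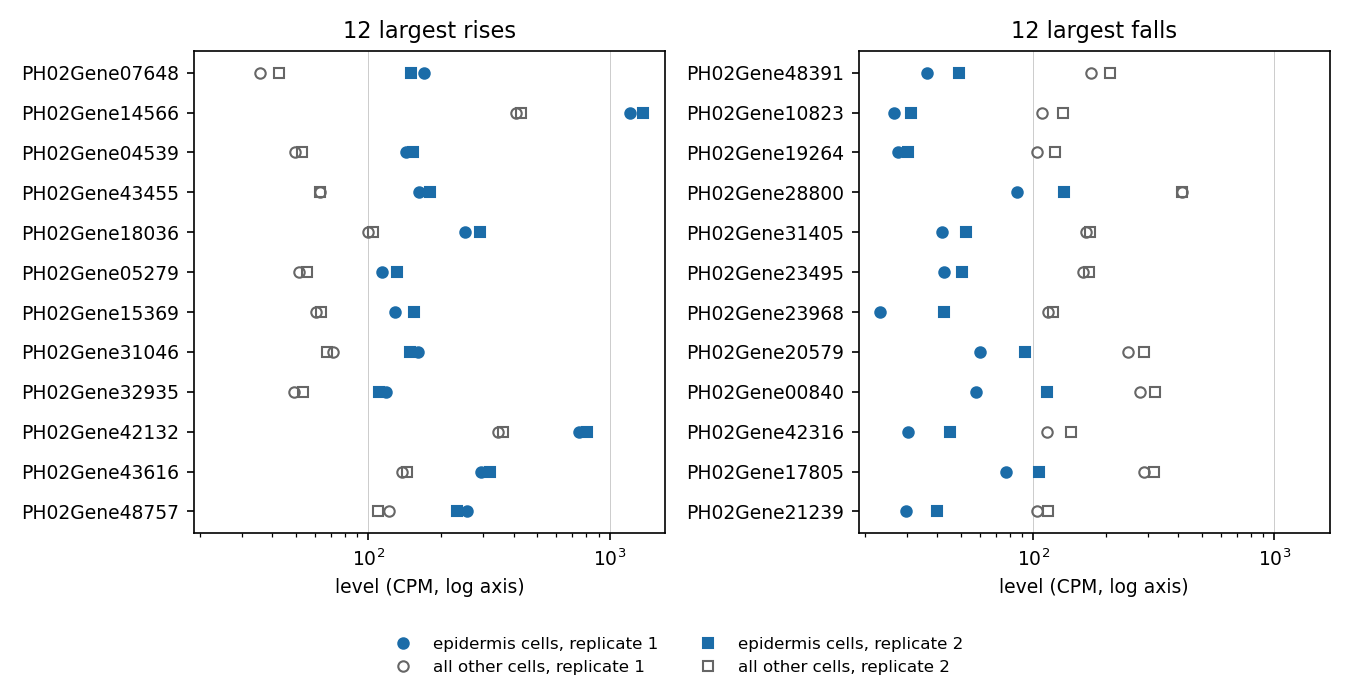
Level in CPM (log axis) of the 12 genes with the largest rises (left) and the 12 with the largest falls (right) among called genes of at least 100 CPM. Filled symbols are epidermis cells and open symbols all other cells, circles replicate 1 and squares replicate 2. The genes were chosen as called and changed the same way in both replicates, which largely ensures that filled and open symbols lie apart.

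Many of the falls depended on the third condition of the rule. PH02Gene00514-rich cells could not be members, and they numbered 416 and 506 of the other cells. Without that condition 755 genes were lower in place of 1482, and 342 were higher in place of 322. PH02Gene28800 had 85.4 and 134 CPM in epidermis cells and 415.5 and 414 CPM in all other cells (-1.81 ± 0.15), yet only 60.8 and 102 CPM in initial-type cells, against 1893 and 1635 CPM in PH02Gene00514-rich cells. Its log2 fold change without the condition was -0.83. PH02Gene20579 likewise no longer passed, at -0.94. PH02Gene48391 (-1.39), PH02Gene31405 (-1.37), PH02Gene21239 (-1.33), PH02Gene19264 (-1.25) and PH02Gene23495 (-1.22) still fell without the condition.

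The markers of other cell types that the study named were read as lists, and they too had been chosen on these libraries. Of 8 root cap markers, 5 fell and none rose (6.04% and 1.31% of all genes), with a median log2 fold change of -1.32 beside -0.04 over all genes tested. The summed level of the 8 was 1557 and 1700 CPM in epidermis cells against 2208 and 2424 CPM in all other cells. PH02Gene15627 had 25.9 and 31.0 CPM against 71.0 and 69.1 CPM (-1.20 ± 0.11), and PH02Gene26026, like a heavy metal-associated isoprenylated protein, had 0.9 and 4.9 CPM against 16.4 and 16.2 CPM (-2.30 ± 0.30). PH02Gene28681, like a glutathione S-transferase, fell at 0.5 and 16.0 CPM against 20.0 and 32.6 CPM (-1.46 ± 0.49, edgeR adjusted p = 0.041) with the replicates far apart, and was called neither with DESeq2 nor without replicate 1 (-0.92). PH02Gene48860 had 4.3 and 10.6 CPM against 21.5 and 29.0 CPM (-1.61 ± 0.27). PH02Gene00521, like GDAP2, fell from 238 and 303 CPM to 71.5 and 112 CPM (-1.45 ± 0.17). Without the condition on PH02Gene00514, PH02Gene00521 and PH02Gene48860 were not called, at -0.60 and -0.99.

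The other 3 root cap markers were not called. PH02Gene17668, a zinc finger protein, had 1151 and 1176 CPM against 1380 and 1457 CPM (-0.19 ± 0.07, edgeR adjusted p = 0.064). PH02Gene46694 had 201 and 211 CPM against 238 and 251 CPM (-0.16 ± 0.08, adjusted p = 0.18). PH02Gene07817 had 102 and 138 CPM against 224 and 266 CPM (-0.93 ± 0.13), past the adjusted p but not the fold. Their part in the results was not tested. Against initial-type cells, none of the 8 root cap markers was called, and their median log2 fold change was 0.52. Against transition-type cells 2 were lower (median -0.59), and against PH02Gene00514-rich cells 4 were lower (median -1.19).

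Of 7 ground tissue markers, 2 fell and none rose, beside 6.04% lower and 1.31% higher over all genes. Their median log2 fold change was -0.37, beside -0.04. PH02Gene45651 had 125 and 116 CPM against 305 and 285 CPM (-1.20 ± 0.08), and PH02Gene36478 had 23.8 and 36.6 CPM against 99.5 and 113 CPM (-1.70 ± 0.15). PH02Gene15920, at 1367 and 1286 CPM against 2088 and 2178 CPM, had a log2 fold change of -0.60 ± 0.07. PH02Gene05035, of the E3 ubiquitin ligases, had 489 and 461 CPM against 521 and 483 CPM (0.01 ± 0.07). PH02Gene04869, like endoglucanase 7, PH02Gene29708, like LEC14B, and PH02Gene28983, a chloroplast protease subunit, had log2 fold changes of -0.37, -0.37 and -0.07. PH02Gene36478 was not called without the condition on PH02Gene00514, at -0.68.

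Of the initial cell markers, PH02Gene04325 fell from 124 and 116 CPM to 39.3 and 52.6 CPM (-1.27 ± 0.12, edgeR adjusted p = 7.4e-06). PH02Gene30509, an ortholog of phenylalanine ammonia-lyase, the entry enzyme of phenylpropanoid synthesis, had 642 and 574 CPM against 613 and 578 CPM (0.12 ± 0.07, adjusted p = 0.27). The second transition cell marker, PH02Gene02039, had 1521 and 1640 CPM against 1003 and 1020 CPM (0.74 ± 0.08), higher by the adjusted p (1.6e-05) but under 2-fold, unlike PH02Gene10382. None of the 5 markers of the undefined cells of the study was called. Of these, PH02Gene06911 and PH02Gene29817, the ribosomal proteins L15 and L5, had log2 fold changes of 0.75 ± 0.08 and 0.70 ± 0.07, and PH02Gene41010, PH02Gene35698 and PH02Gene23345 had 0.22, 0.03 and -0.10.

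Of 6 genes that the study followed along its root cap and epidermis trajectories, PH02Gene41953 alone was called, a gene that the study drew along its root cap trajectory. PH02Gene16535, drawn by the study along its epidermis trajectory, had 684.5 and 766 CPM in epidermis cells against 435 and 516 CPM (0.70 ± 0.10, edgeR adjusted p = 1.7e-04). It was higher still in PH02Gene00514-rich cells, at 1234 and 1404 CPM. PH02Gene49134, like germin-like protein 12-2, had 399 and 525 CPM against 859 and 751.5 CPM (-0.70 ± 0.12), with its highest level in initial-type cells, at 2264 and 2111 CPM. PH02Gene38077, like germin-like protein 1-1, had 2131 and 2152 CPM against 1376 and 1307 CPM (0.77 ± 0.07). PH02Gene31767 and PH02Gene11309 had log2 fold changes of -0.61 and -0.36. Germin-like proteins are wall-associated proteins, some of which act against pathogens.

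Orthologs of genes known for epidermal functions in other species did not mark these cells. The orthologs of GL2 (PH02Gene07226) and ANL2 (PH02Gene01903), which in Arabidopsis act in the outer layer of the root, had 2.7 and 1.6 CPM and 0.5 and 0.2 CPM in epidermis cells, against 1.3 and 0.8 CPM and 0.9 and 1.1 CPM in all other cells. Neither passed the test (edgeR adjusted p = 0.058 and 0.11), and at these levels little could have been detected. Of 5 orthologs of enzymes of very-long-chain fatty acid and cuticle synthesis, none was called, with a median log2 fold change of -0.36. PH02Gene21017, like 3-ketoacyl-CoA synthase 11, had 110 and 97.4 CPM against 143 and 141 CPM (-0.36 ± 0.08). Of 12 tested orthologs of root hair and actin genes, none rose and 1 fell, PH02Gene14086, a myosin ortholog at 0.5 and 1.1 CPM against 2.2 and 2.4 CPM. The profilin ortholog PH02Gene19469 had 178 and 206 CPM against 175.5 and 206 CPM (0.10 ± 0.10). The label of epidermis thus rested on markers found in bamboo by the study.

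Lists of heat shock proteins, wall-loosening genes, aquaporins and peroxidases held falls and no rises, beside 6.04% of all genes lower and 1.31% higher. These lists were drawn from genes described in the cluster tables of the study, and so chosen on these libraries. Of 6 heat shock proteins, which act as chaperones, 5 fell with a median log2 fold change of -1.05. PH02Gene14139, a chloroplast small heat shock protein, had 38.4 and 47.4 CPM against 118 and 133 CPM (-1.45 ± 0.12), and PH02Gene26751, like heat shock cognate 70, had 45.0 and 36.0 CPM against 94.4 and 89.0 CPM (-1.10 ± 0.10). Of 6 wall-loosening genes, 2 fell, namely the expansin PH02Gene14288 (25.2 and 39.4 CPM against 75.2 and 83.5 CPM, -1.18 ± 0.15) and the xyloglucan endotransglucosylase PH02Gene05411 (-1.22 ± 0.18). Another gene of this list, PH02Gene31368, had 486 and 513 CPM against 391 and 409 CPM (0.41 ± 0.08). Of 5 aquaporins other than the rule gene, 2 fell, PH02Gene26718 (12.9 and 13.3 CPM against 36.7 and 49.9 CPM, -1.63 ± 0.19) and PH02Gene33633 (-1.17 ± 0.15). The vacuolar aquaporin PH02Gene03621 had 1039 and 1022 CPM against 850.5 and 839 CPM (0.38 ± 0.07). Of 16 peroxidases, 3 fell (PH02Gene44955, PH02Gene44580 and PH02Gene35834, by 1.04 to 1.25 on the log2 scale), with a median of -0.12. All of these named falls were lost without the condition on PH02Gene00514, with log2 fold changes from -0.37 to -0.94. Without replicate 1, PH02Gene14288 (-0.98), PH02Gene05411 (-0.95), PH02Gene44580 (-0.87) and PH02Gene35834 (-0.91) also fell short of 2-fold, as did PH02Gene26751 without replicate 2 (-0.99). These falls were relative to all other cells. Against initial-type cells, the median log2 fold changes of the heat shock, wall-loosening, aquaporin and peroxidase lists were 0.71, 0.45, 0.59 and -0.15.

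Vascular orthologs gave 6 falls and no rise among 24 tested, beside 6.04% lower and 1.31% higher over all genes. Their median log2 fold change was -0.25, beside -0.04. PH02Gene10076, an ortholog of XCP1, a protease of maturing xylem in Arabidopsis, had 39.0 and 45.9 CPM against 108 and 122 CPM (-1.34 ± 0.11, and -0.84 without the condition on PH02Gene00514). The ortholog PH02Gene34818 of ATHB-8, a factor of the procambium in Arabidopsis, had 0.5 and 1.4 CPM against 5.4 and 6.0 CPM (-2.41 ± 0.38). Meristem factor orthologs gave 1 rise among 8 tested with a median of 0.49. That gene, PH02Gene22504, had only 0.9 and 1.1 CPM against 0.2 and 0.4 CPM, while the more abundant BBM ortholog PH02Gene27330 had 108 and 94.2 CPM against 70.2 and 65.9 CPM (0.66 ± 0.09). The histone H3 ortholog PH02Gene17224 rose from 26.5 and 30.9 CPM to 63.6 and 60.7 CPM (1.20 ± 0.11). Histone H3 is a core protein of the nucleosomes that package DNA. The other H3 gene of the list, PH02Gene24787, had a log2 fold change of -0.21.

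The other lists held few or no called genes against all other cells. No gene was called among 7 nucleotide sugar and pyrophosphatase orthologs (median log2 fold change 0.33), 8 of the methyl cycle (-0.28), 13 of phenylpropanoid synthesis (-0.10), 10 of glycolysis (-0.12) or 6 endodermis and ground tissue factors (-0.26). The same held for 3 germin-like proteins (0.53), 5 callose synthases (-0.20), 4 defence proteins (-0.51) and 4 ribosomal proteins (0.30). Of 20 ABC transporters 2 fell, PH02Gene10640 (-1.20) and PH02Gene24658 (-1.36), and of 6 glutathione S-transferases 1 fell, the root cap marker PH02Gene28681.

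**Figure D5:**
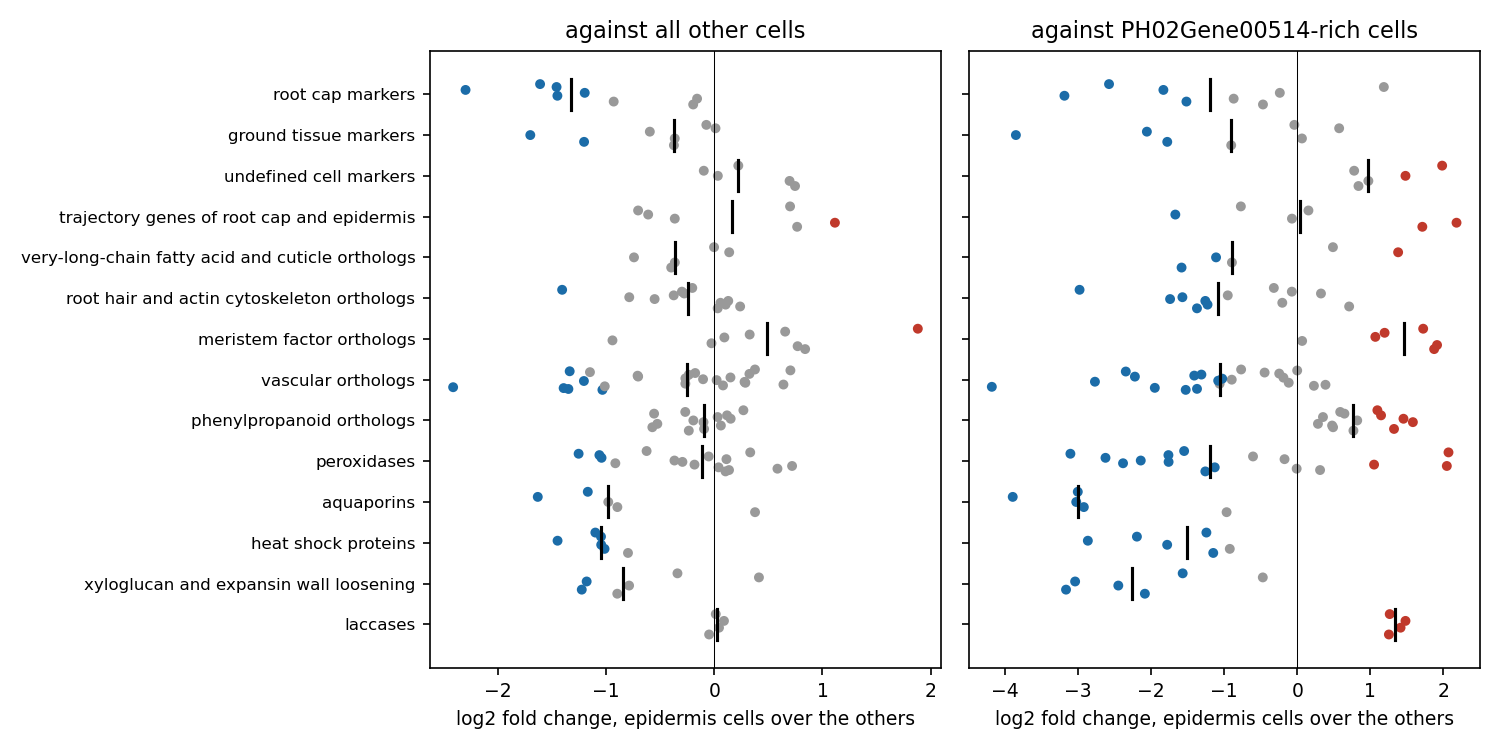
Log2 fold change of each tested gene of 14 lists, epidermis cells over all other cells (left) and over PH02Gene00514-rich cells (right). Red points passed as higher, blue as lower and grey did not pass, and black bars are list medians (root cap markers -1.32 and heat shock proteins -1.05 on the left).

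Compared with initial-type cells, epidermis cells had 1894 genes higher (9.36% of 20227 tested) and 1241 lower (6.14%), at the same limits. Among genes of at least 100 CPM in the higher set, the largest fall was PH02Gene27584, with 14.1 and 11.5 CPM in epidermis cells against 166 and 152 CPM (-3.81 ± 0.16, edgeR adjusted p = 1.8e-14). PH02Gene43520, a nudix hydrolase, an enzyme class that cleaves nucleoside diphosphate compounds, had 97.2 and 114 CPM against 942 and 775 CPM (-3.19 ± 0.14). Among 13 phenylpropanoid orthologs, 12 were lower than in initial-type cells, with a median of -1.33 beside 0.05 over all genes tested in this comparison. PH02Gene30509 among them stood at 1207 and 1142 CPM in initial-type cells (-1.12 ± 0.09). PH02Gene03697, an ortholog of cinnamate 4-hydroxylase, the next enzyme of the pathway, had 58.8 and 56.4 CPM against 195 and 206 CPM (-1.97 ± 0.11). The ribosomal protein gene PH02Gene06911 was higher, at 313 and 318 CPM against 46.2 and 44.6 CPM (2.63 ± 0.12). Among genes of at least 100 CPM in the higher set, the largest rises were PH02Gene07648, PH02Gene07646, PH02Gene17551, PH02Gene03141 and PH02Gene39458, from 2.73 to 3.12 on the log2 scale.

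Against transition-type cells the fewest genes of these 3 comparisons were called, with 1228 higher (6.07%) and 1083 lower (5.35%). PH02Gene43616 had 292 and 318 CPM against 53.5 and 65.3 CPM (2.31 ± 0.12), and PH02Gene39458 had 168 and 173 CPM against 35.0 and 39.2 CPM (2.15 ± 0.12). PH02Gene36773 had 187 and 176 CPM against 860 and 752 CPM (-2.21 ± 0.10), and PH02Gene43520 was again lower (-2.14 ± 0.14). PH02Gene06911 and PH02Gene29817 were higher than in transition-type cells as well, by 1.94 ± 0.11 and 1.48 ± 0.10.

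Against PH02Gene00514-rich cells the most genes were called, with 2504 genes higher (12.4%) and 4038 lower (20%). This contrast includes a gene of the rule, so cells were separated along it by choice. PH02Gene27237 had 1475 and 1716 CPM against 253 and 363 CPM (2.46 ± 0.13), and PH02Gene19873, like a blue copper protein, had 4172 and 5003 CPM against 964 and 1272 CPM (2.13 ± 0.11). Both were higher still in initial-type cells, with 2772 and 2681 CPM of PH02Gene27237 and 5880 and 6238 CPM of PH02Gene19873. Transition-type cells had 1511 and 1421 CPM and 3136 and 3287 CPM of them. PH02Gene42685 had 4.1 and 4.5 CPM against 141 and 151 CPM (-4.98 ± 0.17). All 4 laccases of the list, enzymes that oxidize phenolics such as lignin precursors and here sharing 1 description, were higher in epidermis cells by a median of 1.34, beside 0.08 over all genes. They stood at a median of -0.60 against initial-type cells and of 0.03 against all other cells. PH02Gene38077 lay between initial-type and PH02Gene00514-rich cells, with 3283 and 2894, then 2131 and 2152, then 668 and 721 CPM in the order of initial-type, epidermis and PH02Gene00514-rich cells.

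The epidermis cells were not uniform. Over members thinned to 4000 UMIs, the 1765 genes of at least 100 CPM had a median variance-to-mean ratio of 1.39 in replicate 1 and 1.40 in replicate 2, where a larger ratio means more spread than counting alone would give. The thionin gene PH02Gene25370 had the highest ratio, 29.7 and 24.1. No UMI of it was found in 75% and 77.9% of members, and the richest 10% of cells held 86.5% and 87.7% of its UMIs. PH02Gene11536, like a Bowman-Birk proteinase inhibitor of the wound-induced kind, had ratios of 18.0 and 22.1 at 5585 and 6373 CPM, with no UMI in only 3.74% and 2.62% of members. PH02Gene19873, PH02Gene13412 and PH02Gene06856 followed, with ratios of 12 and 14.6, 11.8 and 9.87, and 10.4 and 8.65. The same genes varied among all other cells too, where the ratio of PH02Gene11536 was 19.7 and 18.0 and that of PH02Gene25370 was 16.0 and 11.6.

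The genes whose levels over the 8 sums of cells were most like that of PH02Gene14566 were PH02Gene05279, PH02Gene41760, PH02Gene28487, PH02Gene12201 and PH02Gene23530, with Pearson r of log2 CPM from 0.98 to 0.99. These sums share their libraries and the sets that define them, so r is a description. PH02Gene05279 had 114 and 131 CPM in epidermis cells, 38.1 and 42.9 CPM in initial-type, 58.8 and 55.2 CPM in transition-type and 48.9 and 53.4 CPM in PH02Gene00514-rich cells. PH02Gene23530 varied over a narrower range, from 905 and 920 CPM in initial-type cells to 1276 and 1346 CPM in epidermis cells.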

How the data were processed

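Basal root tips of 2 biological replicates were made into protoplasts and captured as droplet libraries. The deposited files hold raw UMI counts per gene and barcode, which the authors made with Cell Ranger 5.0.1 and STAR (submitters' processing notes) on 50936 genes. The mitochondrial filter of the study was not applied, since the identifiers do not name such genes.

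UMIs were summed per replicate and set of cells, since cells are not replicates. Sums were tested with edgeR 4.0.16 (quasi-likelihood, TMM, filterByExpr, Benjamini-Hochberg adjustment over all genes tested) in R 4.3.3, with 4 sums for the comparison with all other cells and 8 sums for the other sets. A gene was called at an adjusted p under 0.05 and at least 2-fold. The 3 genes of the rule were left out, and the marker genes that define the other sets were left out of the fit of 8 sums. Levels are CPM without TMM. Clusters came from Seurat 5.3.0 (20 principal components, resolution 0.8). The count test was tried on simulated data with known changes.

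The members and gene lists were chosen with earlier results of these data known. Named genes are the 12 largest rises and falls of at least 100 CPM, up to 8 of each with an annotation (4 rises and 8 falls were found), all markers and trajectory genes of the study, up to 4 called genes of at least 20 CPM per list, the 5 most variable genes, the 5 largest rises and falls of at least 100 CPM against each other set and the 5 genes most like PH02Gene14566. Some further list members are given with their values and were chosen after these were seen. Names come from tables of the study, since no genome was used. Same-numbered sums come from the same library, which pairs them, and the deviations of epidermis and other sums correlated at 0.078 over genes. Alternatives were DESeq2 1.42.0, no filter on low counts, a replicate block, other UMI minimums and thresholds, the rule on a random part of the UMIs, thinned cells, the rule without PH02Gene00514, and each replicate left out.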

Additional observations from a re-analysis of the deposited data

How the results depend on the processing

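With a replicate block, 328 genes were higher and 1643 lower than in all other cells, and no call of a named gene changed under the block. Against all other cells, the number of genes higher was 648 with thresholds of 500 and 5000 CPM and 528 when other cells of the main cluster were left out, beside 322. The number lower was 760 with DESeq2 and 755 without the condition on PH02Gene00514, beside 1482. With 1 replicate left out no test was possible, and genes past 2-fold numbered 497 to 621 higher and 2497 to 2844 lower. Against initial-type cells DESeq2 called 1158 higher beside 1894, and 2-fold rises with a replicate left out numbered 2453 to 3071. DESeq2 called 774 higher than in transition-type cells beside 1228, and the rule on one part of the UMIs with values from the rest gave 1561 higher than in PH02Gene00514-rich cells beside 2504. The cause was not tested, other than by fewer samples where a replicate was left out.

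The number of epidermis cells was 1402 with thresholds of 250 and 2500 CPM and 439 with 500 and 5000 CPM, beside 925. At full depth the mean share of cells with a UMI of PH02Gene14566 was 84.7% of epidermis cells and 58.1% of other cells, beside 75.4% and 46.0% after thinning. The main cluster held 55.0%, 52.9%, 53.0% and 53.1% of the epidermis cells with 4 other clustering seeds, chosen after seeing the data, beside 55.1%. PH02Gene14566 was called under every alternative tested, with log2 fold changes from 1.52 to 2.08. No named gene changed direction while called. Small sets and low genes limit what could be detected.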
